A study of Mus musculus with 12 samples.

Results

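Tubulin genes and the tubulin binding gene Tppp are described here in oligodendrocyte-enriched cells of the mouse spinal cord: the alpha tubulin genes Tuba1a, Tuba1b and Tuba4a, the beta tubulin genes Tubb2a, Tubb2b, Tubb4a, Tubb4b, Tubb5 and Tubb6, and Tppp. They were chosen by name and not by a measured value, though with earlier results of these data known. They were 10 of 35675 genes with a value in the deposited files. All 10 passed the filter on low counts and were among the 13456 genes tested. Libraries came from spinal cord at postnatal day 10, 1 mouse each, with 4 mice in each of 3 groups. Control mice were CnpCre:Rosa26-StopFlox-TdTomato, RalA cKO mice also carried RalAflox/flox, and RalAB cKO mice carried both RalAflox/flox and RalBflox/flox. The Cre recombinase, driven from Cnp, a gene of myelinating glia, and the tdTomato reporter it switches on were thus shared by all groups, controls included. Cells were sorted on the reporter and on large forward scatter, and the gate used no surface marker. RalA and RalB, the products of Rala and Ralb, are Ras-like GTPases with a role in vesicle tethering by the exocyst. The depth was 10.93 to 15.44 M estimated counts per library.

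Microtubules are hollow polymers of paired alpha and beta tubulin, and each mammalian tubulin is encoded by several genes, the isotypes, whose proteins differ most at their acidic carboxy-terminal tails. Those tails are where many modifications are placed and where many motors and microtubule binding proteins attach. Oligodendrocytes, the myelin-forming cells of the central nervous system, depend on microtubules to extend processes and to carry vesicles and myelin mRNA along them. Tubb4a is a beta isotype enriched in oligodendrocytes and known for hypomyelinating disease when mutated, and Tppp is a tubulin polymerization promoting protein that is abundant in these cells.

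The coding ends of 5 beta isotype genes are shown first, because this stretch encodes the tail by which the isotypes are known to differ. Each line gives the last 66 bases of the coding sequence, 5′ to 3′, from GENCODE vM21 transcripts on GRCm38. Capitals mark the alignment columns where the 5 genes are not all identical.
Tubb4a: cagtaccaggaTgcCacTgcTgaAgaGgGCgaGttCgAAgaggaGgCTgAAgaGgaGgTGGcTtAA
Tubb2a: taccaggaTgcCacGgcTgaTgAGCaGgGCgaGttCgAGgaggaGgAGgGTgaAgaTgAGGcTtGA
Tubb2b: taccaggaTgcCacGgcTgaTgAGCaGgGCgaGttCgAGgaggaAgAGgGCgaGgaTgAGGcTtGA
Tubb4b: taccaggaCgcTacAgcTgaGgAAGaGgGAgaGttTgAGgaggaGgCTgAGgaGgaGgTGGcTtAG
Tubb5: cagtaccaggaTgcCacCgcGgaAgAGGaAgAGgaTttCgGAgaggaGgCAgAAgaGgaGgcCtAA
Capitals made up 37.9% to 42.4% of these ends and 26.1% to 26.2% of the rest of the coding sequence. Among the alpha genes, Tuba4a is the alpha isotype known to be made without the terminal tyrosine that enzymes remove from, and add back to, other alpha tubulins.

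Some of these genes are near copies of one another, which bears on how far their values can be separated. The coding sequences of Tuba1a and Tuba1b were 98.3% identical. Those of Tubb2a (chr13:34074274-34078007) and Tubb2b (chr13:34126748-34130466) were 96.5% identical. Of all 31-base windows of its mRNA, the share found in no other gene was 24.5% for Tuba1a, 17.2% for Tuba1b, 47.1% for Tubb2a and 62.5% for Tubb2b. It was 98.4% for Tubb4a, 93.5% for Tubb4b, 96.0% for Tubb5, 96.4% for Tubb6 and 100% for Tppp. The gene sharing most windows was Tuba1c for Tuba1a (54.7%) and AC157548.1 for Tuba1b (66.8%). The estimate for each gene of the first 2 pairs therefore rests in part on how the quantifier split shared reads. Given below are the sum of Tubb2a and Tubb2b and that of all alpha tubulin genes. For Tuba4a (chr1:75214228-75219865) the share was 51.4%, with 48.0% of windows shared with Stk16, which overlaps it on the opposite strand.

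The sorted cells carried the expression of myelinating and of newly formed oligodendrocytes. Mbp stood at a mean of 44123 CPM (estimated counts scaled to a common library size by TMM) in controls, and the summed level of 8 oligodendrocyte markers was 90382 to 124373 CPM over all 12 libraries. Summed CPM of 6 newly formed oligodendrocyte markers was 5044 to 6361 in controls, 4646 to 5327 in RalA cKO and 5444 to 5781 in RalAB cKO. Markers of other cell types were present at low levels and moved with genotype. Summed CPM of 8 microglia markers was 156 to 328 in controls, 104 to 167 in RalA cKO and 679 to 1253 in RalAB cKO. Summed CPM of 5 precursor markers was 339 to 587, 205 to 341 and 96.9 to 282 in the same order, and that of 9 neuron markers was 83.2 to 168, 55.5 to 102 and 29.9 to 54.6. No marker gene of these lists was at 0 in all libraries of a group. In such bulk samples fewer cells of a type and less RNA per cell cannot be told apart. Control 1 and RalAB cKO 1 stood farthest from the other libraries of their groups over all genes. The chi-square per degree of freedom was 27.4 to 39.5 in pairs with control 1 and 9.63 to 19.7 among the other controls, and it was 19.7 to 31.8 in pairs with RalAB cKO 1 and 9.09 to 14.96 among the others of that group. Values without both libraries are given where the call of one of the 10 genes changed. Rala was 35.5 to 59.3 CPM in controls, 33.1 to 42.7 in RalA cKO and 32.2 to 42.9 in RalAB cKO. Ralb was 15.1 to 23.3, 13.4 to 17.5 and 14.03 to 17.2, and neither gene passed the test in either comparison with control (edgeR adjusted p 0.0832 to 0.236). Reads outside the floxed exons count toward a gene, and the sources used here do not name those exons, so these values do not check the deletion.

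Levels of different genes were compared per length, in TPM, which divides counts by transcript length. Tuba1a, the main alpha isotype of developing brain, was the highest tubulin gene in every library, at 10816 ± 1148 TPM (SD, n = 4) in controls, 10056 ± 914 in RalA cKO and 8538 ± 204 in RalAB cKO. Tubb4a came second, at 6256 ± 799, 6457 ± 349 and 6478 ± 514 TPM. Tubb2b, a neural beta isotype, followed at 1227 ± 150 TPM in controls. Tuba1b, an alpha isotype made in most cell types, stood at 608 ± 90.3 TPM in controls, and Tubb5, a beta isotype common in dividing cells, at 583 ± 90.9 TPM. Those means differed by less than their spread, and so did the next group of Tubb4b, a widely made beta isotype (410 ± 39.9 TPM), Tubb2a, a neural beta isotype (393 ± 75.7 TPM), and Tppp (383 ± 60.5 TPM). Tuba4a (16.2 ± 9.75 TPM) and Tubb6, a beta isotype found mainly outside the nervous system (1.99 ± 0.614 TPM), were far below the rest. Alpha tubulin genes together made up 11457 ± 1205 TPM in controls, 10616 ± 960 TPM in RalA cKO and 9035 ± 192 TPM in RalAB cKO. In TPM no RalAB cKO library reached the lowest of the other 8. As a percent of estimated counts RalAB cKO (0.842% to 0.939%) overlapped RalA cKO (0.915% to 1.20%), with controls at 0.963% to 1.26%. Beta tubulin genes together made up 8918 ± 856, 8595 ± 479 and 8359 ± 511 TPM, with overlapping groups.

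**Figure D1:**
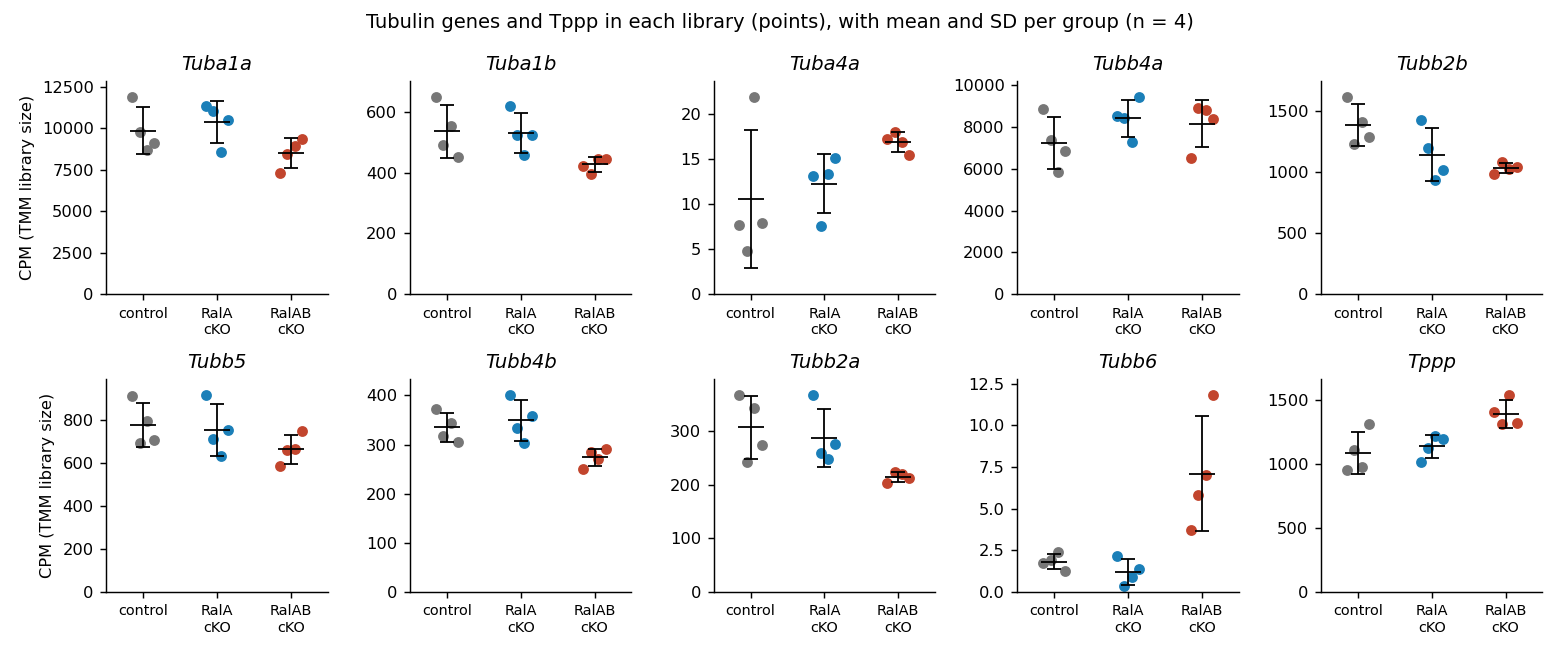
Expression of each gene in each library, in CPM scaled by TMM on a linear axis from 0; points are the 4 mice of a group, bars their mean and SD. Tubb6 stands at 3.71 to 11.9 CPM in RalAB cKO and at or below 2.38 CPM in the other 8 libraries, while the other genes change by far smaller factors.

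In RalA cKO against control, no gene of the 10 passed the test, against a background of 2.78% of all tested genes, 1.71% higher and 1.07% lower (edgeR quasi-likelihood test, Benjamini-Hochberg adjusted p under 0.05). The DESeq2 test and limma-voom also called 0 of the 10. No gene had groups that did not overlap, against 11.4% of all tested genes, 5.64% higher and 5.77% lower. The median log2 fold change of the 10 was 0.02, beside -0.02 over all tested genes. One gene, Tubb2b, had an unadjusted p under 0.05: it stood at 1619.8, 1233, 1413 and 1289 CPM in controls 1 to 4 and at 1426, 1196, 934 and 1015 CPM in RalA cKO 1 to 4. Only the first RalA cKO library lay inside the upper part of the control range, and another 3 lay below its lowest value. The log2 fold change of Tubb2b was -0.28 ± 0.13 (SE) with an edgeR adjusted p of 0.213. Tubb4a was 0.22 ± 0.14 on the log2 scale (adjusted p = 0.376), Tubb6 -0.62 ± 0.45 (adjusted p = 0.421) and Tuba4a 0.21 ± 0.37 (adjusted p = 0.767). The other 6 genes lay between -0.10 and 0.07.

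In RalAB cKO against control, 4 of the 10 genes passed the test, against a background of 18.4% of all tested genes, 9.39% higher and 9.02% lower: Tubb6 and Tppp rose, and Tubb2a and Tubb2b fell. This comparison and the former share the control libraries. Groups did not overlap for 6 of the 10, with 2 higher and 4 lower, against 19.2% of all tested genes, 9.88% higher and 9.34% lower. The median log2 fold change was -0.22, beside -0.01 over all tested genes.

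Tubb6 showed the steepest change of the 10. It was at 1.70, 1.90, 2.38 and 1.27 CPM in controls 1 to 4, at 2.14, 0.354, 0.873 and 1.35 CPM in RalA cKO 1 to 4, and at 3.71, 5.80, 7.03 and 11.9 CPM in RalAB cKO 1 to 4. Every RalAB cKO library lay above all 8 others, although the gene stayed low in all: these values rest on 14 to 38, 4 to 24 and 50 to 156 estimated counts. The rise against control was 1.95 ± 0.42 on the log2 scale, or 3.87-fold (edgeR adjusted p = 0.00411). Against RalA cKO it was 2.58 ± 0.44, or 5.96-fold (edgeR adjusted p = 0.000763). Both calls held with each of the 12 libraries left out in turn, with log2 values of 1.59 to 2.17 and 2.21 to 3.00. As a share of beta tubulin TPM, Tubb6 stayed small, at 0.0225% in controls, 0.0130% in RalA cKO and 0.0830% in RalAB cKO.

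Microglia markers were high in the libraries where Tubb6 was high. All of the 8 passed the test as higher in RalAB cKO than in RalA cKO and 7 of 8 as higher than in control. Of all tested genes 7.03% and 9.39% passed as higher in these comparisons. In RalAB cKO 1 to 4 Tubb6 and the summed markers had the same order, while within controls and within RalA cKO their orders differed. C1qa, a complement subunit made by microglia, averaged 36.7 CPM in controls and 220.2 CPM in RalAB cKO. The part of microglial RNA in the rise of Tubb6 was not tested. The 3 tested genes whose log2 CPM was most like that of Tubb6 over the 12 libraries were Arhgap27 (Pearson r = 0.966), Stat6 (r = 0.962) and Arhgdib (r = 0.961). Points within a group share genotype, so these values describe the libraries and carry no test.

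**Figure D2:**
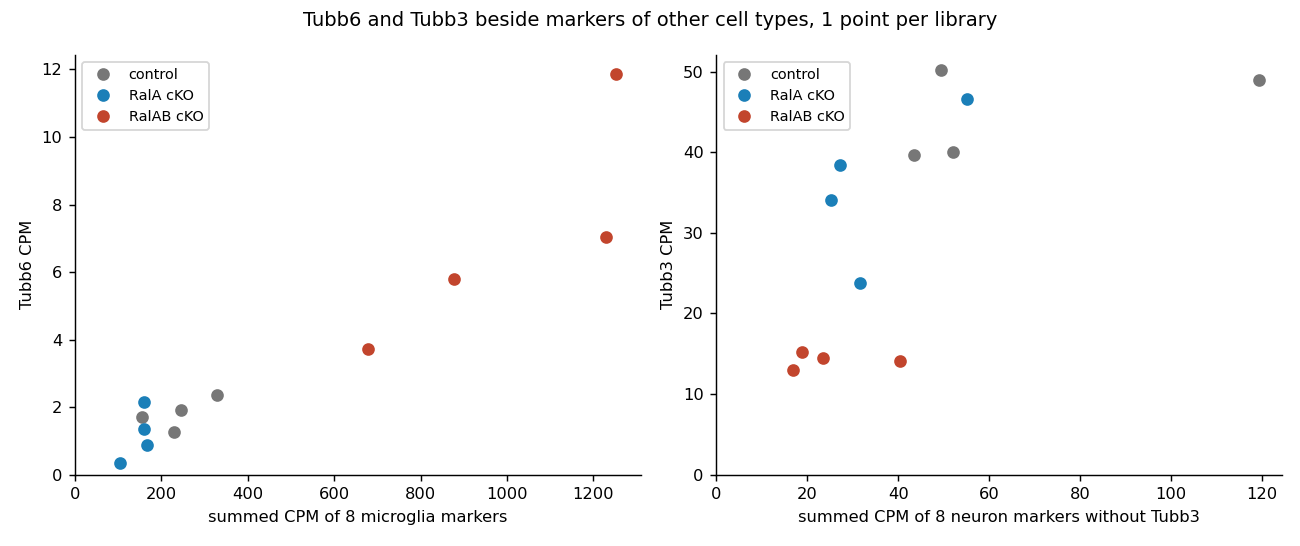
Left, CPM of Tubb6 against the summed CPM of 8 microglia markers; right, CPM of Tubb3 against the summed CPM of 8 neuron markers without Tubb3; each point is 1 library. RalAB cKO libraries lie at 679 to 1253 microglia marker CPM and high Tubb6, and at 16.9 to 40.5 neuron marker CPM and low Tubb3.

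Tubb2a and Tubb2b fell together in RalAB cKO. Tubb2a was at 368, 242, 343 and 274 CPM in controls 1 to 4, at 367, 259, 248 and 275 CPM in RalA cKO and at 202, 223, 220.2 and 213 CPM in RalAB cKO. The RalAB cKO libraries lay below all others and close to each other. The change against control was -0.52 ± 0.14 (edgeR adjusted p = 0.0189), a fall of 30.1%, and against RalA cKO it was -0.42 ± 0.14 (adjusted p = 0.0698). Tubb2b in RalAB cKO was at 988, 1086, 1027 and 1041 CPM, below each of the control libraries given above. Its change against control was -0.42 ± 0.13 (edgeR adjusted p = 0.034), a fall of 25.4%. RalAB cKO and RalA cKO overlapped for Tubb2b (-0.14 ± 0.13, adjusted p = 0.593).

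Counted as 1 gene, Tubb2a and Tubb2b fell by 0.44 ± 0.13 on the log2 scale in RalAB cKO against control (edgeR adjusted p = 0.0298). The ratio of Tubb2b to Tubb2a TPM was 3.16 ± 0.23 in controls, 2.77 ± 0.29 in RalA cKO and 3.35 ± 0.12 in RalAB cKO (SD, n = 4). Markers of several other cell types moved in the same direction: 4 of 5 precursor, 5 of 9 neuron, 4 of 6 astrocyte and 4 of 5 cycling markers passed the test as lower in RalAB cKO than in control. Of all tested genes 9.02% passed as lower. Of 4 endothelial, 3 pericyte and fibroblast and 2 Schwann cell markers tested, 0 passed. Summed astrocyte markers were 334 to 540.2 CPM in controls, 292 to 449 CPM in RalA cKO and 262 to 287 CPM in RalAB cKO. The part of other cell types in the fall of Tubb2a and Tubb2b was not tested. The Tubb2a call ended without control 1 (-0.42), control 3 (-0.47) or RalAB cKO 4 (-0.51), each with an adjusted p of 0.0504 to 0.0513. The Tubb2b call held in 5 of 12 such fits, which ranged from -0.47 to -0.34. Without both control 1 and RalAB cKO 1 neither was called (Tubb2a -0.38, adjusted p = 0.0695; Tubb2b -0.31, adjusted p = 0.11).

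Tppp rose slightly in RalAB cKO. It was at 953, 1107, 971 and 1308 CPM in controls 1 to 4, at 1018, 1125, 1216 and 1197 CPM in RalA cKO and at 1401, 1309, 1542 and 1315 CPM in RalAB cKO. In CPM all RalAB cKO libraries lay above the others, but control 4 came within 1 CPM of the lowest of them. In TPM the groups overlapped, at 320 to 465 in controls, 316 to 409 in RalA cKO and 358 to 487 in RalAB cKO. The change against control was 0.36 ± 0.12 (edgeR adjusted p = 0.0431), a rise of 28.3%, and against RalA cKO it was 0.29 ± 0.12 (adjusted p = 0.14). The call held in 2 of the 12 fits that left out a library (log2 0.29 to 0.47) and in 6 of 11 other settings. Settings where it ended included library totals (0.27, adjusted p = 0.0848) and transcript length offsets (0.29, adjusted p = 0.138). Without both control 1 and RalAB cKO 1 Tppp was not called (0.31, adjusted p = 0.0903). For each 100 TPM of beta tubulin there were 3.91 ± 0.87 TPM of coding Tppp transcript in controls, 3.70 ± 0.61 in RalA cKO and 4.90 ± 0.78 in RalAB cKO.

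The most abundant isotypes did not pass the test. Tuba1a was at 11891, 9762, 8667 and 9076 CPM in controls 1 to 4, at 11349, 11037, 8544 and 10496 CPM in RalA cKO and at 7311, 8425, 8937 and 9368 CPM in RalAB cKO. In CPM the groups overlapped, and the RalAB cKO change against control was -0.21 ± 0.14 (edgeR adjusted p = 0.306). In TPM the RalAB cKO libraries, at 8386 to 8838, lay below all others, the lowest of which stood at 9021. Tuba1b was lower in every RalAB cKO library than in any other, at 396 to 447 CPM beside 452 to 650.3 CPM in controls and 457 to 619 CPM in RalA cKO. Its change against control was -0.33 ± 0.12 (adjusted p = 0.074), and library totals as the scaling brought it past the threshold (-0.42, adjusted p = 0.0263). Tubb5 was -0.23 ± 0.13 in RalAB cKO against control (adjusted p = 0.241).

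Tubb4a was at 8851, 7373, 5861 and 6871 CPM in controls 1 to 4, at 8504, 8425, 7282 and 9446 CPM in RalA cKO and at 6511, 8921, 8835 and 8401 CPM in RalAB cKO. Control 1 and RalAB cKO 1 lay on the opposite side of the other 3 libraries of their groups. With all libraries the RalAB cKO change against control was 0.17 ± 0.14 (edgeR adjusted p = 0.443). Without those 2 libraries it was 0.39 (edgeR adjusted p = 0.0343), a setting chosen after the values were seen. Of 8 oligodendrocyte markers, 4 passed the test as lower in RalAB cKO than in control, among them Mog, and 0 as higher. Of all tested genes 9.02% passed as lower and 9.39% as higher. The 8 summed to 90382 to 117590 CPM in controls and 93701 to 121135 CPM in RalAB cKO. Mbp, which did not pass, was at 35960 to 50234 CPM in controls and 44446 to 62495 CPM in RalAB cKO.

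Tuba4a was at 7.66, 4.84, 21.9 and 7.91 CPM in controls 1 to 4, at 13.1, 7.52, 13.4 and 15.2 CPM in RalA cKO and at 17.3, 18.05, 16.9 and 15.44 CPM in RalAB cKO. Control 3 stood above every other library, and the RalAB cKO libraries stood above all RalA cKO libraries and above the other 3 controls. The RalAB cKO change against control was 0.66 ± 0.36 (edgeR adjusted p = 0.228). It became 1.30 without control 3 (adjusted p = 0.00165) and 1.10 with transcript length offsets (adjusted p = 0.0191). The Tuba4a transcript of 2840 bases, used for the sequence comparison above, was listed at 0 TPM in all controls and at no more than 1.20 TPM elsewhere. The other counts of the gene were assigned to shorter transcripts.

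Between the mutants, RalAB cKO against RalA cKO, 2 of the 10 genes passed the test, against a background of 11.5% of all tested genes, 7.03% higher and 4.50% lower: Tubb6 rose and Tubb4b fell. Groups did not overlap for 6 of the 10, with 3 higher and 3 lower, against 17.3% of all tested genes, 9.65% higher and 7.63% lower. The median log2 fold change of the 10 was -0.16, beside -0.03 over all tested genes. Tubb4b was at 373, 317, 344 and 305 CPM in controls 1 to 4, at 402, 333, 303 and 358 CPM in RalA cKO and at 250.5, 284, 270.4 and 290.3 CPM in RalAB cKO. The RalAB cKO libraries lay below all 8 others. The change against RalA cKO was -0.35 ± 0.11 (edgeR adjusted p = 0.043), and the call held in 3 of the 12 fits that left out a library (-0.42 to -0.28). Without both control 1 and RalAB cKO 1 Tubb4b was not called (-0.31, adjusted p = 0.0523). Against control Tubb4b was -0.29 ± 0.11 (adjusted p = 0.0694), and -0.38 with library totals as the scaling (adjusted p = 0.014). Tuba1a (-0.28 ± 0.14), Tuba1b (-0.31 ± 0.12) and Tppp (0.29 ± 0.12) did not pass between the mutants, with adjusted p-values of 0.125 to 0.224.

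**Figure D3:**
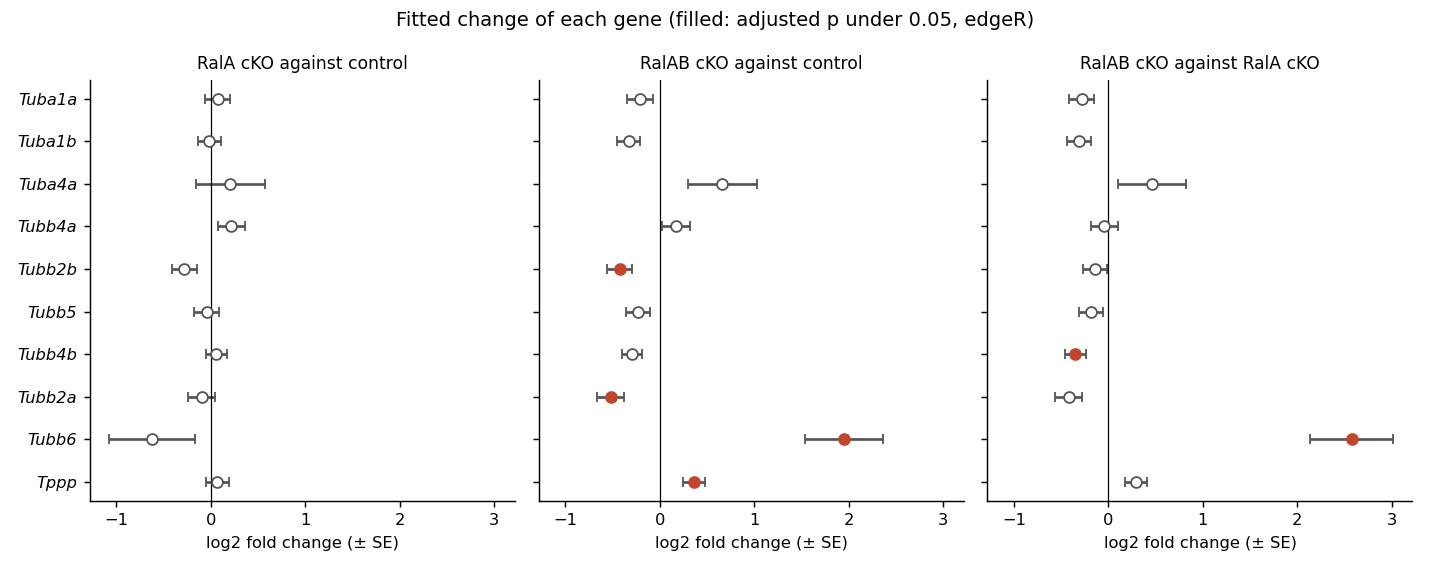
Fitted log2 fold change of each gene with its standard error in the 3 comparisons, n = 4 mice per group; filled points passed the edgeR test at an adjusted p under 0.05. No point is filled in RalA cKO against control, 4 are in RalAB cKO against control and 2 in RalAB cKO against RalA cKO.

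Isotype shares were then taken within each class, as a percent of the summed TPM of all alpha or all beta tubulin genes of a library. Tuba1a held 94.4% ± 0.70 of alpha tubulin TPM in controls, 94.7% ± 0.33 in RalA cKO and 94.5% ± 0.52 in RalAB cKO (SD, n = 4), and Tuba1b held 5.31% ± 0.57, 5.01% ± 0.31 and 4.91% ± 0.45. These shares overlapped in all comparisons. The beta class was shared among more genes. Tubb4a held 71.3%, 73.8%, 64.2% and 71.0% in controls 1 to 4, 71.4%, 75.4%, 75.4% and 78.5% in RalA cKO and 74.96%, 78.6%, 78.9% and 77.4% in RalAB cKO. Every RalAB cKO library lay above all controls, with means of 70.1% ± 4.11 in controls, 75.2% ± 2.89 in RalA cKO and 77.4% ± 1.77 in RalAB cKO. Tubb2b held 13.0%, 12.2%, 16.4% and 13.6% in controls, 12.1%, 10.93%, 10.3% and 8.46% in RalA cKO and 11.48%, 9.98%, 9.33% and 9.89% in RalAB cKO. Both mutant groups lay below all controls.

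Shares were tested for the 7 isotypes with a mean of at least 0.5% in each of 3 comparisons, 21 tests in all, by exact two-sided permutation of 4 against 4 libraries, whose smallest p is 0.0286. In RalAB cKO against control that p was reached by 4 shares. Tubb4a was higher by 7.38 points, and Tubb2b, Tubb2a and Tubb4b were lower, with differences of -3.65, -1.38 and -0.93 points. In RalA cKO against control it was reached by Tubb2b alone (-3.36 points), and the share of Tubb4a differed by 5.11 points (exact p = 0.0571). Between the mutants it was reached by Tubb4b alone (-0.71 points). After Benjamini-Hochberg adjustment over the 21 exact tests each of these p-values was 0.1, so no share passed 0.05. With a smallest p of 0.0286, a few fully separated shares among 21 tests could not pass, so this outcome leaves the differences undecided. Because shares of a class sum to 100%, a higher share of Tubb4a and lower shares of the others are not separate observations. Tubb2a and Tubb2b taken as 1 share differed by -5.02 points in RalAB cKO and by -3.99 points in RalA cKO against control. As 1 share RalA cKO overlapped the controls, unlike Tubb2b alone.

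**Figure D4:**
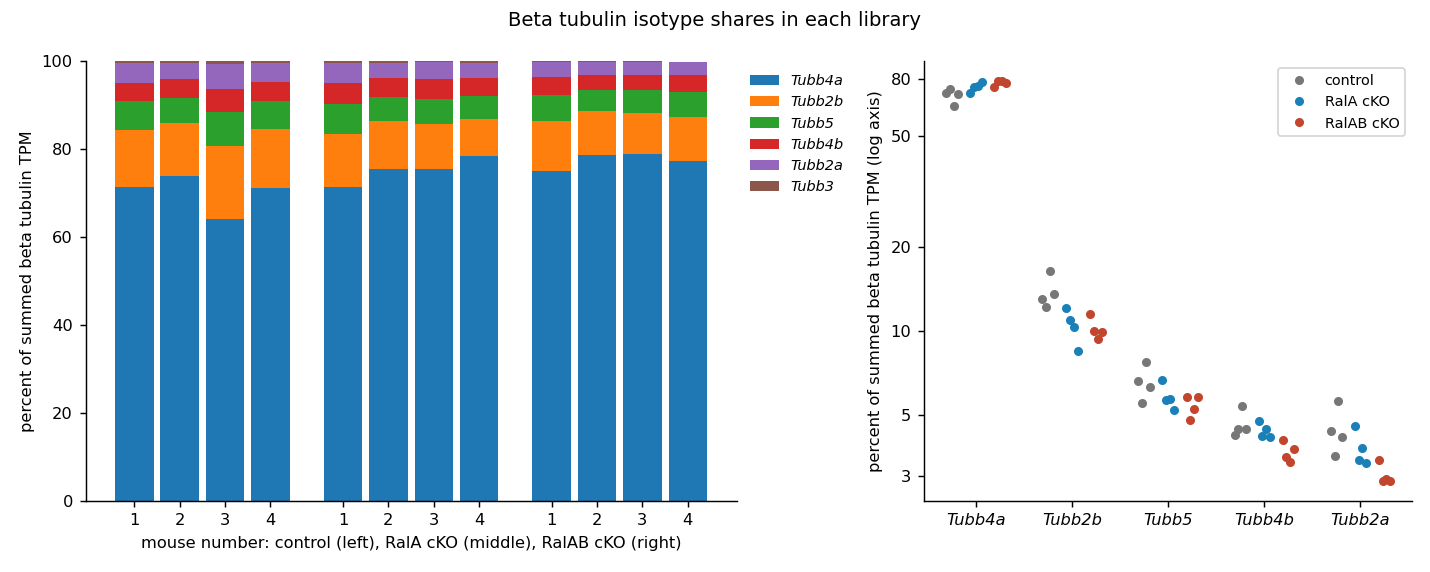
Left, stacked shares of the beta tubulin genes in each library as percent of summed beta tubulin TPM; right, the 5 largest shares with 1 point per library on a log axis. Tubb4a rises from 64.2% to 73.8% in controls to 74.96% to 78.9% in RalAB cKO, and Tubb2b lies at 12.2% or more in controls and at 12.1% or less in both mutants.

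At the level of transcripts, Tuba1a, Tubb2a, Tubb4a and Tubb6 were each listed with 1 transcript. A retained-intron transcript held 15.8% ± 6.58 of Tubb5 TPM in controls, 17.5% ± 2.38 in RalA cKO and 15.3% ± 3.69 in RalAB cKO (SD, n = 4). A short non-coding transcript held 10.2% ± 4.83, 10.1% ± 7.48 and 5.15% ± 4.02 of Tppp TPM in the same order. Another held 4.45% ± 2.83, 6.06% ± 3.05 and 5.17% ± 1.75 of Tubb2b TPM. These shares overlapped between all groups.

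The genes most like the others in log2 CPM over the 12 libraries were Rab11b for Tubb4a (r = 0.975), Pithd1 for Tuba1a (r = 0.952), Mfge8 for Tubb2b (r = 0.952) and Hdac6, a tubulin deacetylase, for Tubb2a (r = 0.944). They were Maged1 for Tubb5 (r = 0.963), Ethe1 for Tuba1b (r = 0.923), Mapt, the gene of tau, for Tuba4a (r = 0.917), Arpin for Tubb4b (r = 0.915) and Dusp16 for Tppp (r = 0.898). All such values are descriptions over libraries that share groups and scaling.

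Other genes of the pathway were read from 8 lists. Among other tubulins and Tppp relatives, 7 of 13 genes were tested, with median log2 fold changes against control of 0.24 for RalA cKO and -0.08 for RalAB cKO, beside -0.02 and -0.01 over all tested genes. Of those 7, 1 rose in RalA cKO and 1 fell in RalAB cKO against control. In RalAB cKO against RalA cKO 1 was higher and 2 were lower. The shares of all tested genes called were 2.78%, 18.4% and 11.5%. Tubb3, the beta isotype known as a neuronal marker, was at 39.6 to 50.2 CPM in controls, 23.8 to 46.7 CPM in RalA cKO and 12.9 to 15.3 CPM in RalAB cKO. It fell in RalAB cKO, with log2 fold changes of -1.65 ± 0.17 against control (edgeR adjusted p = 1.76e-05) and -1.33 ± 0.17 against RalA cKO (edgeR adjusted p = 6.57e-05). The other 8 neuron markers summed to 43.6 to 119 CPM in controls, 25.3 to 55.1 in RalA cKO and 16.9 to 40.5 in RalAB cKO, and their part in the fall was not tested. Tuba1c, an alpha isotype close in sequence to Tuba1b, was higher in RalAB cKO than in RalA cKO (1.39 ± 0.25, edgeR adjusted p = 0.00133). It did not pass against control in RalA cKO (-0.88 ± 0.25, adjusted p = 0.0651) or in RalAB cKO (0.51 ± 0.24, adjusted p = 0.16). Those calls of Tubb3 and Tuba1c held with each library left out. Of the 31-base windows of Tuba1c mRNA, 37.9% were found in no other gene and 56.6% were shared with Tuba1b. Its values, 8.05 to 31.5 CPM over all libraries, thus rest in part on how shared reads were split.

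Tppp3, a relative of Tppp, was at 412, 266, 241 and 385 CPM in controls 1 to 4, at 504, 590.1, 433 and 646 CPM in RalA cKO and at 262, 349.5, 372 and 322 CPM in RalAB cKO. The RalA cKO libraries lay above all others. Tppp3 rose in RalA cKO against control (0.74 ± 0.18, edgeR adjusted p = 0.0364), a call that held in 6 of 12 fits without a library. It was lower in RalAB cKO than in RalA cKO (-0.73 ± 0.18, edgeR adjusted p = 0.0114), which held in all 12. Against control Tppp3 in RalAB cKO was 0.00 ± 0.18 on the log2 scale, while Tppp gave 0.07 ± 0.12 in RalA cKO and 0.36 ± 0.12 in RalAB cKO.

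Stathmins, which sequester tubulin dimers, were read with the severing proteins that cut microtubules. The list also held the kinesins Kif2a, Kif2c and Kif18a. Of its 13 genes tested, 1 was higher and 0 lower in RalA cKO. Against control 2 fell in RalAB cKO with none higher, and the comparison of the mutants gave 0 higher and 2 lower. All tested genes gave 2.78%, 18.4% and 11.5% in the 3 comparisons. The list medians were -0.12, -0.31 and -0.17. Stmn4 rose in RalA cKO, from 286 to 379 CPM in controls to 479 to 685 CPM (0.79 ± 0.13, edgeR adjusted p = 0.00536). It was lower in RalAB cKO than in RalA cKO (-0.60 ± 0.13, adjusted p = 0.00518). Stmn1 fell in RalAB cKO, with 192 to 253 CPM in controls, 237 to 266 CPM in RalA cKO and 110.5 to 145 CPM in RalAB cKO. Its log2 change was -0.71 ± 0.11 against control (edgeR adjusted p = 0.000482) and -0.96 ± 0.11 against RalA cKO (edgeR adjusted p = 3.41e-05). Kif2c, a depolymerizing kinesin of dividing cells, fell by 1.16 ± 0.29 on the log2 scale in RalAB cKO against control (edgeR adjusted p = 0.0103), where 4 of 5 cycling markers also fell.

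Of 19 tested genes of enzymes that modify tubulin and of their partner proteins, 2 rose and 4 fell in RalAB cKO against control. Another 13 did not pass, beside 18.4% of all tested genes called, with a list median of 0.05. None of the 19 passed in RalA cKO (edgeR; Atat1 came closest, 0.49 ± 0.13, adjusted p = 0.0508) or between the mutants. Atat1, the alpha tubulin acetyltransferase, rose by 0.58 ± 0.13 (edgeR adjusted p = 0.00494), and Sirt2, a deacetylase abundant in myelin, rose by 0.56 ± 0.14 (adjusted p = 0.0114). Hdac6 fell by 0.61 ± 0.18 (adjusted p = 0.0311), and Ttl, the ligase that adds the terminal tyrosine back, fell by 0.85 ± 0.20 (adjusted p = 0.00866). The calls of Atat1, Sirt2 and Ttl held with each library left out, and that of Hdac6 in 7 of 12 fits. Of the 2 counts, the risen genes were 4 without control 1, and the fallen genes were 2 without control 1, control 2 or RalAB cKO 2 and 1 without RalAB cKO 3 or RalAB cKO 4. Of all tested genes 2768 were called without control 1 and 1818 without control 2, beside 2478 with all libraries. Without RalAB cKO 2, RalAB cKO 3 or RalAB cKO 4 these calls were 1727, 1679 and 1605.

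Of 22 tubulin folding factors, 1 rose in RalA cKO and 3 fell in RalAB cKO against control, beside 2.78% and 18.4% of all tested genes, with list medians of 0.07 and -0.06. Arl2, a GTPase of dimer assembly, rose in RalA cKO (0.69 ± 0.17, edgeR adjusted p = 0.0395). In RalAB cKO the chaperone genes Tbca (-0.59 ± 0.19), Tbce (-0.50 ± 0.15) and Pfdn1 (-0.35 ± 0.10) fell (edgeR adjusted p 0.0236 to 0.0363). None of these 4 calls held in all fits without a library, and the count of fallen genes was 0 without control 2 or RalAB cKO 2 and with transcript length offsets, 1 without control 3, control 4, RalAB cKO 3 or RalAB cKO 4, and 5 without control 1. Where that count was 0 or 1, the fits called 1605 to 2009 of all tested genes. The fit without control 1 called 2768, beside 2478 with all libraries. Vbp1, a prefoldin subunit, was lower in RalAB cKO than in RalA cKO (-0.60 ± 0.15, adjusted p = 0.0177), which held in 8 of 12 fits.

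Microtubule binding proteins had 2 that rose and 6 that fell of 33 in RalAB cKO against control, beside 18.4% of all tested genes, with a list median of -0.07. Those with the smallest p all fell: Dpysl5 (-0.88 ± 0.17), Dpysl3 (-1.57 ± 0.34), Dcx, doublecortin of young neurons (-1.44 ± 0.34), and Mtcl1 (-0.97 ± 0.25), with edgeR adjusted p-values of 0.00201 to 0.0136. Dpysl3 and Dcx are known from immature neurons and precursors, whose markers fell in the same libraries, and the part of those cells was not tested. Clasp1, a plus-end protein, fell in RalA cKO (-0.74 ± 0.14, adjusted p = 0.0141), 1 of 33 beside 2.78% of all tested genes, where the list median was -0.30. The call of Clasp1 held in 10 of 12 fits without a library. In RalA cKO the list gave 2 risen and 3 fallen genes without control 1, 0 risen and 2 fallen without control 3, 1 risen and 2 fallen without RalAB cKO 1, and 0 without control 2 or RalA cKO 4. In the same order these fits called 947, 154, 677, 103 and 85 of all tested genes, beside 374 with all libraries. Between the mutants Map1b (0.79 ± 0.22) and Camsap1 (0.33 ± 0.10) were higher and Clip2 (-0.36 ± 0.11) lower in RalAB cKO, calls that held in 9, 5 and 5 of 12 fits without a library. The count of fallen genes in RalAB cKO against control was 3 without control 3 or RalAB cKO 3, 10 without control 1 and 11 without RalAB cKO 1, and that of risen genes ranged from 0 to 4. Of all tested genes 1958 were called without control 3, 1679 without RalAB cKO 3, 2768 without control 1 and 3209 without RalAB cKO 1. With all libraries 2478 were called.

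Motor genes carry cargo along microtubules. In RalAB cKO against control 4 of 21 kinesin genes rose and 3 fell, and 3 of 22 dynein and dynactin genes rose and 1 fell, against 18.4% of all tested genes. The list medians were -0.06 and -0.01. The count of fallen kinesins was 0 without control 2, RalAB cKO 2, RalAB cKO 3 or RalAB cKO 4 and 1 without control 3 or control 4. Those fits called 1605 to 2009 of all tested genes, beside 2478 with all libraries. Kif19a rose by 0.70 ± 0.13, the kinesin light chains Klc1 and Klc4 by 0.57 ± 0.11 and 0.77 ± 0.15, and Kif13b by 0.50 ± 0.12 (edgeR adjusted p 0.00141 to 0.00897). Kif13b also rose in RalA cKO (0.54 ± 0.12, adjusted p = 0.0271), a call that held in 8 of 12 fits without a library. Of the dynein genes, Dync1li1 rose by 0.63 ± 0.12, the light chain Dynll2 by 0.48 ± 0.12 and Dync1li2 by 0.40 ± 0.14, and Dync1i1, an intermediate chain known from neurons, fell by 1.25 ± 0.33. The calls of Kif19a, Klc1, Klc4, Kif13b, Dync1li1 and Dynll2 in RalAB cKO against control held with each library left out, and that of Dync1li2 in 2 of 12 fits. Of 17 nucleation genes, Cdk5rap2 alone passed in RalAB cKO against control (-0.93 ± 0.31, edgeR adjusted p = 0.0499), beside 18.4% of all tested genes. That call held in 5 of 12 fits without a library and in 5 of 11 other settings.

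**Figure D5:**
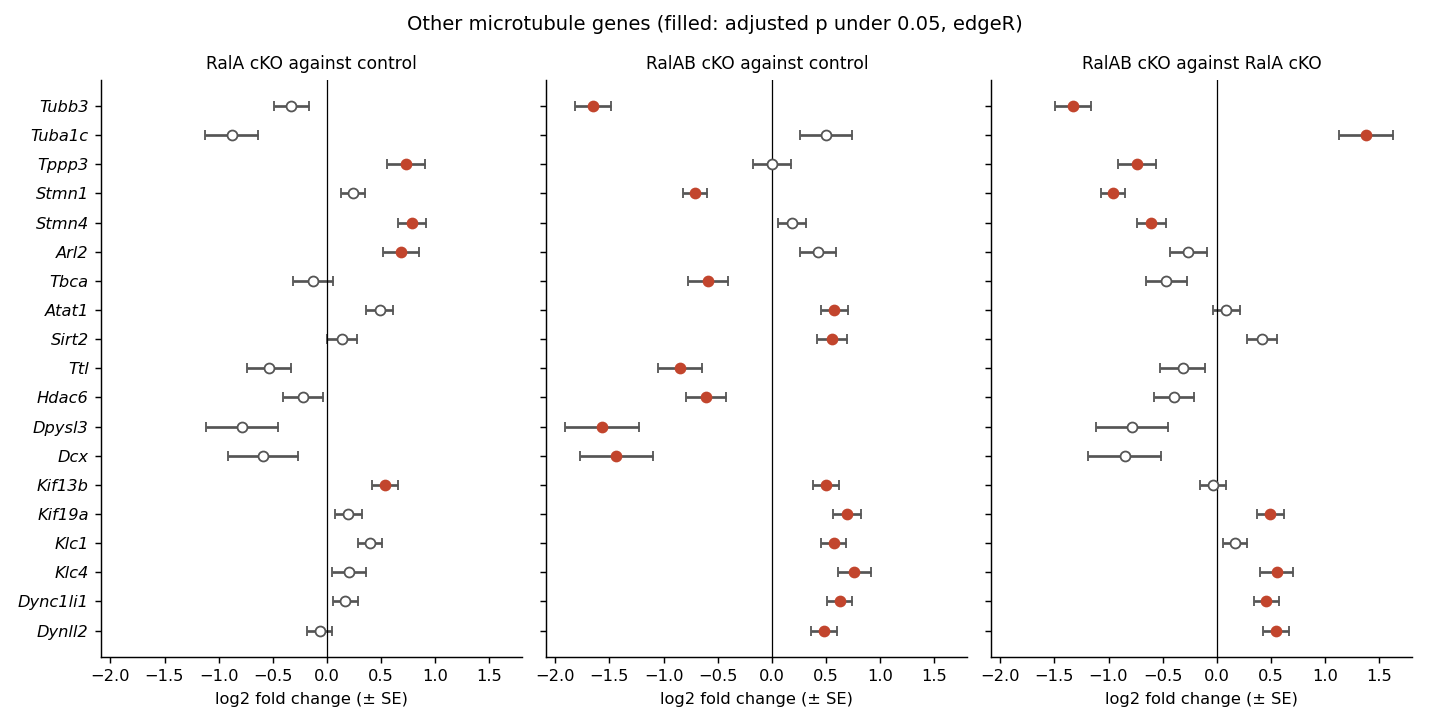
Fitted log2 fold change with standard error of 19 other microtubule genes in the 3 comparisons, n = 4 mice per group; filled points passed the edgeR test at an adjusted p under 0.05. Tppp3, Stmn4, Arl2 and Kif13b are filled in RalA cKO against control; Tubb3, Stmn1, Ttl, Dpysl3 and Dcx lie low and Klc4, Kif19a and Dync1li1 high in RalAB cKO against control.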

How the data were processed

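The deposited files gave, per library and transcript, estimated counts and TPM made by the authors, with effective lengths. Trimmomatic 0.36, kallisto 0.44 and GRCm38.p6 are named, per the submitters' processing notes, without their roles, and the transcript set is not named. Per the labels, libraries were TruSeq Stranded mRNA. Of 121843 transcripts, 121104 matched GENCODE vM21; estimated counts were summed per gene and rounded.

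All 12 libraries were fitted in edgeR 4.0.16 (TMM, minimum count 10, robust quasi-likelihood test), with Benjamini-Hochberg adjustment over 13456 genes at 0.05. A standard error is the log2 fold change over the square root of F. CPM use TMM. TPM served for levels and shares. Beta tubulin coding sequences were aligned with MAFFT 7.526. The script was tested on simulated data. Each library came from 1 mouse; no pair in a group agreed within sampling noise (chi-square per degree of freedom 9.09 to 39.5). Alternatives were other scalings and filters, DESeq2 1.42.0, limma-voom, 2 groups only, mouse number as a block, length offsets, coding transcripts only, summed paralogs and each library left out.

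Genes and lists were chosen with earlier results of these data known. Named genes are the 10, up to 4 called genes per list with the smallest p, and the most correlated genes; lists without a call are given by counts. The labels do not name the sex of the mice.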

Additional observations from a re-analysis of the deposited data

Results flagged for a closer look

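One value stood apart from its group by Dixon's criterion for 4 samples. The share of Tubb2a in beta tubulin TPM was 3.43% in RalAB cKO 1 and 2.89% to 2.93% in the other 3 RalAB cKO libraries, a gap of 0.938 of the group's range, which is past the 95% critical value. Of 57 groups of 4 examined this was the only one past the value, and chance alone gives about 1 in 20. RalAB cKO 1 also had the lowest Tubb4a share of its group, 74.96%.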

How the results depend on the processing

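Tubb6 kept both of its calls in RalAB cKO under all 11 planned settings and without each library (against control, adjusted p 8e-05 to 0.0231). The other calls lay nearer the threshold. In RalA cKO against control 0 genes of the 10 were called under every setting and without each library. In RalAB cKO against control 1 to 4 were called without a library (1 without control 1 or RalAB cKO 4), and 2 without control 1 and RalAB cKO 1 together, a setting chosen after the data were seen. Over all genes 1605 to 3209 were called without a library in that comparison (2768 without control 1, 1605 without RalAB cKO 4). In RalAB cKO against RalA cKO 1 to 3 were called without a library, and 1 under DESeq2 size factors, 1 with mouse number as a replicate block and 1 without those 2 libraries. Over all genes 1117 to 1678 were called without a library there. Shares with groups that did not overlap numbered 1 to 2 in RalA cKO against control, 4 to 5 in RalAB cKO against control and 1 to 2 between the mutants without a library. With near-identical paralogs summed they were 0 in the first comparison and 2 between the mutants, and 2 between the mutants without those 2 libraries; fewer shares are tested when paralogs are summed.

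Mouse numbers did not pair the libraries: same-numbered deviations correlated at -0.198 to 0.175. With the replicate block, 0, 3 and 1 of the 10 were called; Tppp (0.37, adjusted p = 0.0631) was no longer called in RalAB cKO against control, nor Tubb4b (-0.34, adjusted p = 0.0912) against RalA cKO. Over all genes the block gave 232, 2146 and 1343 calls.

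Some directions changed, none of them of a called gene. Under library totals, which moved the median of all genes to -0.14 in RalA cKO and -0.10 in RalAB cKO against control, Tuba1a (-0.0400), Tubb4b (-0.0558) and Tppp (-0.0426) changed sign in RalA cKO. Without control 1 and RalAB cKO 1, Tuba1b (0.11), Tubb2a (0.0220) and Tubb5 (0.0572) did so in RalA cKO, and Tubb4a (0.0486) between the mutants. Without 1 library the ranges in RalA cKO were -0.0961 to 0.0907 for Tuba1b, -0.0110 to 0.842 for Tuba4a, -0.235 to 0.00372 for Tubb2a, -0.0138 to 0.128 for Tubb4b and -0.153 to 0.0414 for Tubb5. Between the mutants the range for Tubb4a was -0.109 to 0.0439. The cause was not tested. Over all genes, RalA cKO against control gave 374 calls (230 higher), 426 under library totals (176 higher), 1083 with the DESeq2 test and 1693 without control 1 and RalAB cKO 1. RalAB cKO against control gave 2478, and 3962 without those libraries. Depth limits Tubb6 and Tuba4a, which rest on 4 to 351 counts per library; those of Tubb6 are at most 156.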
